A study of Mus musculus with 6 samples.

Results

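The 10 genes described here are Cldn1, Cldn2, Cldn3, Cldn4, Cldn6, Cldn7, Cldn12, Cldn15, Cldn23 and Ocln, taken by symbol from a count table of 55414 genes. They were chosen from measured values, the shCopa and shCon counts of this same comparison, so their differences are given as a description. All 10 had a row in the table, and 6 of them passed the filter on low counts that left 14807 genes for testing. The RNA came from AY-mICC, a mouse cell line used in a study of intrahepatic cholangiocarcinoma, the cancer of the bile ducts inside the liver. In 3 libraries the cells carried a short hairpin RNA against Copa (shCopa), and in 3 libraries a control hairpin (shCon); both groups grew in DMEM with serum and had no other treatment. Copa encodes the alpha subunit of the COPI coat, which returns proteins from the Golgi to the endoplasmic reticulum. The labels do not say whether the 3 libraries of a group came from separate cultures, so the errors and p-values measure the spread between these libraries, which may be technical. How many hairpins were used per gene is not given in the sources, and all libraries come from a single cell line.

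Tight junctions seal the space between neighbouring epithelial cells and set which ions, water and solutes may pass there. Claudins are membrane proteins with 4 transmembrane stretches that polymerise into the junction strands; some claudins seal the strand and others form pores in it. Occludin is a further membrane protein of the strand, from the MARVEL family, and helps to organise it. In the liver these junctions keep bile in canaliculi and ducts apart from blood, and in humans loss of CLDN1 causes a disease of skin and bile ducts.

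Copa itself had 186, 181 and 187 CPM (read counts scaled to a common library size, with TMM factors) in the shCopa libraries, against 419, 516 and 526 CPM in the shCon libraries. It fell by 1.40 on the log2 scale (SE 0.11), and the groups did not overlap. The libraries held 19634876 to 22824582 counts in shCopa and 22282547 to 24546142 in shCon. Of the 14807 genes tested, 36.5% passed an adjusted p of 0.05 in edgeR's quasi-likelihood test, 18.2% higher and 18.4% lower in shCopa. The shCon 1 library stood apart from its group, with correlations of log2 CPM of 0.973 and 0.972 with the other shCon libraries, against 0.989 to 0.991 within shCopa and 0.990 between shCon 2 and shCon 3. Its difference from those 2 libraries moved with gene length, with a median of 0.34 on the log2 scale over the shortest of 4 equal groups of genes (up to 2588 exon bases) and -0.34 over the longest (from 6576 bases). For named genes whose direction or call changed without this library, the value without it is therefore given as well.

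The promoters of the 4 members that passed the test are shown first, because they are the genes on which the comparison turns. Each run is the 250 bases before the farthest-upstream RefSeq start of the gene in GRCm38.p6, written 5′ to 3′ on the gene's strand, with matches to 6 searched motifs in capitals. Cldn1 lies at chr16:26371840-26372089 on the minus strand, Cldn12 at chr5:5514977-5515226 on the minus strand, Cldn2 at chrX:139800558-139800807 on the plus strand and Ocln at chr13:100552719-100552968 on the minus strand.
Cldn1: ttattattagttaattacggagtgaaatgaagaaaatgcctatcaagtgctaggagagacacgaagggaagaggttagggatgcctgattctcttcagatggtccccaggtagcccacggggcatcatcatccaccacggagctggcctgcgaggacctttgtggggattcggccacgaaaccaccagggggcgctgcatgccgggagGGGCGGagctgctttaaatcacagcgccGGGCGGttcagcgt
Cldn12: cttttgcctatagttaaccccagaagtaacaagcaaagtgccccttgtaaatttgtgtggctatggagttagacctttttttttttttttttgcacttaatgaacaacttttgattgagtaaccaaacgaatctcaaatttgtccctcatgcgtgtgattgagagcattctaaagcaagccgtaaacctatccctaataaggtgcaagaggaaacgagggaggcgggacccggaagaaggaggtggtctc
Cldn2: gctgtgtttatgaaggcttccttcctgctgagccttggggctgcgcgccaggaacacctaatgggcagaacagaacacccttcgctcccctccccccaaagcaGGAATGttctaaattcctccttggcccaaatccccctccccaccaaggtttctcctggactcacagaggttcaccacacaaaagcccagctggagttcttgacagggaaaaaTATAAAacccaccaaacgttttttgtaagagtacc
Ocln: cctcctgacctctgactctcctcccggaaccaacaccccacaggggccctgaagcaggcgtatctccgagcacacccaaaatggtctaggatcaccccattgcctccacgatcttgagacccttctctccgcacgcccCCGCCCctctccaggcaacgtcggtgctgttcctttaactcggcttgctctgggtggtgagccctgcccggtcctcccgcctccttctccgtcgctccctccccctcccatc

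The motifs were searched on both strands and none contains another. They were the TATA box TATAAA, the E-box CAGGTG bound by Snail and ZEB proteins, the forkhead motif TGTTTAC, the KLF and SP1 motif GGGCGG, the TEAD motif GGAATG and the AP-1 motif TGANTCA. The Cldn2 window held TATAAA 35 bases before the start, a motif present in 12.4% of the 32841 mouse promoter windows of the same length, and GGAATG 147 bases before it, present in 12.6% of windows. The Cldn1 window held GGGCGG at 42 and 14 bases before the start, and the Ocln window held it on the reverse strand at 112 bases; 32.7% of windows hold this motif. The Cldn12 window held none of the 6. Cldn12 has 3 RefSeq starts and Ocln 2, and only the window of the farthest-upstream start was searched. The E-box, forkhead and AP-1 motifs, found in 17.2%, 3.17% and 6.75% of windows, were in none of these 4 sequences. A match is a stretch of letters and not a measured binding site.

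Cldn2 forms pores for small cations and water and is the member with the widest difference. Its level was 70.0, 65.5 and 64.8 CPM in the shCopa libraries, against 403, 391 and 368 CPM in the shCon libraries. The groups lay far apart, and the libraries within each group lay close together. Cldn2 fell by 2.54 on the log2 scale (SE 0.09), to 17.2% of the shCon level, and passed the threshold over all genes. With each of the 6 libraries left out in turn the log2 fold change lay between -2.58 and -2.51.

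Cldn1, a sealing claudin, moved the other way. It had 225, 217 and 230 CPM in shCopa libraries and 157, 168 and 184 CPM in shCon libraries, so that the lowest shCopa library stood above the highest shCon library. The log2 fold change was 0.40 (SE 0.09), a 1.32-fold higher level in shCopa that passed the threshold. It did not pass without shCopa 1 (0.40) or without shCopa 3 (0.39), and ranged from 0.35 to 0.45 over the 6 fits that leave out a library.

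Cldn12, which differs from most claudins in lacking the tail motif that binds the PDZ domains of scaffold proteins, was the member with the largest rise. It had 192, 205 and 219 CPM in shCopa libraries, against 120, 131 and 132 CPM in shCon libraries. The groups did not overlap, and the log2 fold change was 0.69 (SE 0.09), or 1.61-fold. It passed the threshold in all 6 fits with a library left out, between 0.64 and 0.73.

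Cldn3, another sealing claudin, had 48.0, 49.1 and 43.4 CPM in shCopa libraries and 74.0, 38.8 and 37.7 CPM in shCon libraries. The shCopa libraries lay together, while shCon 1 was above them and the other shCon libraries below them. Its log2 fold change of -0.10 (SE 0.26) did not pass the threshold. Without shCon 1 the value was 0.29, higher in shCopa, and passed. Cldn3 has 1259 exon bases and so lies in the shortest of those 4 groups of genes, and its level in shCon 1 was 0.94 above the other shCon libraries on the log2 scale, a gap wider than the median of 0.34 for that group. The part of the length trend in the Cldn3 result was not tested.

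Cldn15, which forms cation pores in the intestine, was low. It had 34, 30 and 29 counts in shCopa libraries, against 35, 30 and 49 in shCon libraries. The groups overlapped, and the log2 fold change of -0.21 (SE 0.26) did not pass.

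Ocln had 6.41, 7.12 and 6.57 CPM in shCopa libraries and 14.8, 13.6 and 13.5 CPM in shCon libraries. Every shCopa library was below every shCon library. Ocln fell by 1.05 on the log2 scale (SE 0.12), to 48.2% of the shCon level. It passed in all 6 fits with a library left out, between -1.10 and -1.01. These counts come from RNA of whole cultures, in which fewer cells with a transcript and less of it per cell cannot be told apart.

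**Figure D1:**
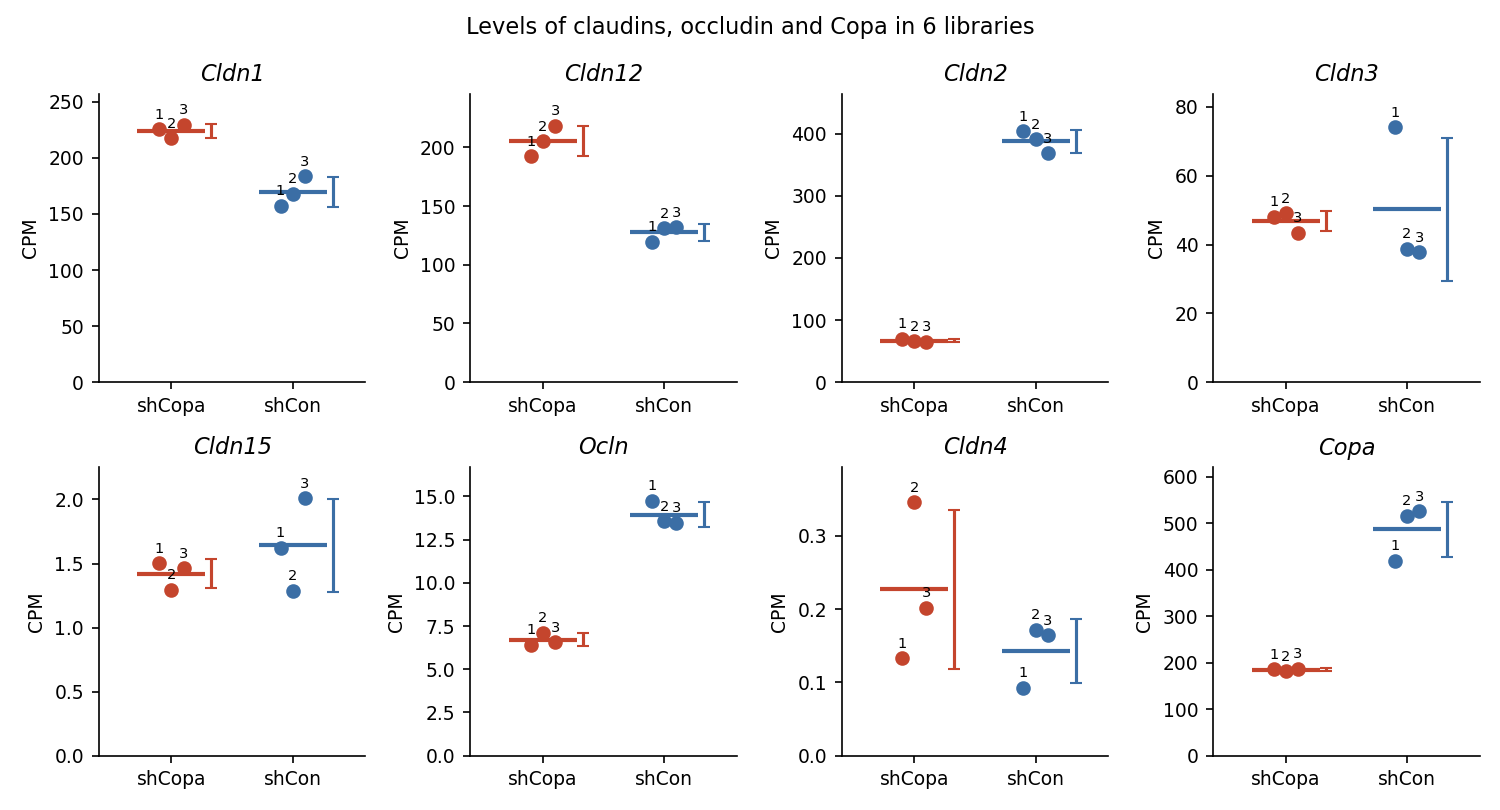
Level of the 6 members that passed the low-count filter and of Cldn4 and Copa, in CPM on axes from 0, in the 3 shCopa libraries (left in each panel) and the 3 shCon libraries (right); points are libraries with their replicate numbers, lines are group means and bars are SDs. Cldn1 and Cldn12 sit higher and Cldn2 and Ocln lower in every shCopa library, while the shCon 1 library of Cldn3 sits at 74.0 CPM, above all others.

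The other 4 members were at or near 0. Cldn4, which in kidney epithelium limits sodium passage, had 3, 8 and 4 counts in shCopa libraries, against 2, 4 and 4 counts in shCon libraries. Summed, that is 15 counts against 10, a ratio of 1.58 for shCopa over shCon with an exact 95% interval of 0.665 to 3.94 that covers counting error only. Cldn7, a claudin of the basolateral membrane as well as the junction, had 1 count in all, in shCopa 3. Cldn6, a claudin of embryonic epithelia, and Cldn23 had no count in any library. With 3 counts as the limit that a count of 0 allows, levels up to 0.123 to 0.152 CPM per library would have gone undetected. Of the 10 members, 2 were thus higher, 2 lower, 2 tested without passing and 4 not tested, where 36.5% of all genes tested passed. The 4 that passed are also the 4 whose groups did not overlap, which was the case for 54.1% of all genes tested. The median log2 fold change of the 6 tested members was -0.15, beside -0.01 over all genes tested.

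**Figure D2:**
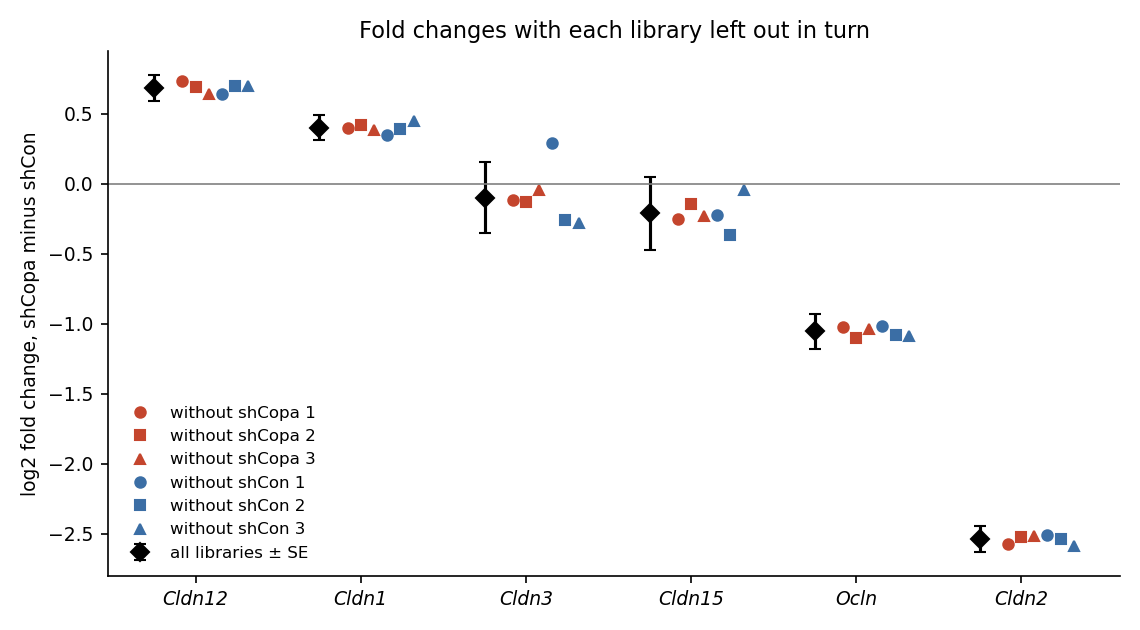
Log2 fold change, shCopa minus shCon, of the 6 tested members from all libraries (diamonds, bars are SE) and with each library left out in turn (coloured symbols). Cldn3 alone crosses 0, at 0.29 without shCon 1.

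Levels of different claudins were compared per length, as CPM per kilobase (kb) of exon. In shCopa the order was Cldn12 at 48.6 ± 3.11, Cldn1 at 46.3 ± 1.28, Cldn3 at 37.2 ± 2.38, Cldn2 at 20.1 ± 0.842 and Cldn15 at 0.669 ± 0.0521 CPM per kb (SD, n = 3). Cldn12 and Cldn1 overlapped there, and the other neighbours did not. In shCon the order was Cldn2 at 117 ± 5.37, Cldn3 at 39.9 ± 16.4, Cldn1 at 35.1 ± 2.72, Cldn12 at 30.2 ± 1.65 and Cldn15 at 0.773 ± 0.171 CPM per kb (SD, n = 3). The range of Cldn3 in shCon, set by shCon 1, took in that of Cldn1 and overlapped that of Cldn12, whereas Cldn1 and Cldn12 did not overlap each other. Ocln, on the same scale, averaged 1.59 ± 0.0887 in shCopa and 3.30 ± 0.171 CPM per kb in shCon (SD, n = 3). Cldn2 was thus first in shCon and behind Cldn12, Cldn1 and Cldn3 in shCopa.

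The make-up of the claudin pool followed from these levels. Summed over the 32 claudin genes with a row in the table, the level was 155 ± 1.30 CPM per kb in shCopa and 226 ± 16.5 CPM per kb in shCon (SD, n = 3). Cldn2 made up 13.7%, 12.7% and 12.5% of that sum in shCopa libraries, against 49.6%, 53.7% and 51.8% in shCon libraries. Its share was smaller in every shCopa library, by 38.8 percentage points between the group means. Cldn12 made up 31.4 ± 1.75% in shCopa and 13.5 ± 1.65% in shCon, Cldn1 29.9 ± 0.727% in shCopa and 15.6 ± 2.24% in shCon, and Cldn3 24.1 ± 1.71% in shCopa and 17.4 ± 5.77% in shCon (SD, n = 3 each). Shares of a sum are bound to each other, so that a smaller share of Cldn2 makes the other shares larger. The ratio of Cldn2 to Cldn1 per kb does not depend on the other claudins and was 0.452, 0.438 and 0.411 in shCopa libraries, against 3.73, 3.38 and 2.92 in shCon libraries. Cldn2 was the lesser of the pair in every shCopa library and the greater in every shCon library.

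**Figure D3:**
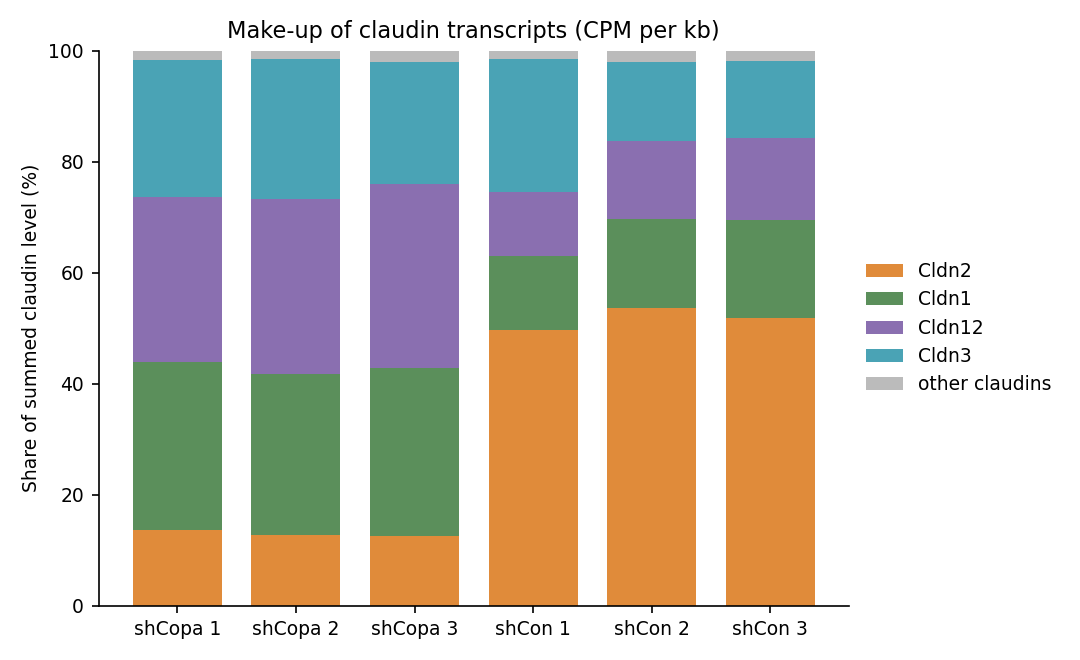
Share of the summed claudin level (CPM per kb of exon, in percent) held by each of the main claudins in the 3 shCopa libraries (left) and the 3 shCon libraries (right). Cldn2 takes 12.5% to 13.7% of the sum in shCopa and 49.6% to 53.7% in shCon.

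Among the 32 claudin genes, 13 had no count in any library, 5 had fewer than 10 counts in all, and 4 (Cldn1, Cldn2, Cldn3 and Cldn12) averaged above 10 CPM. Beside the members, Cldn14, Cldn34c1 and the related gene Cldnd1, which is not counted among the 32, passed the low-count filter. Of these 3, Cldn14 and Cldn34c1 passed the threshold as lower in shCopa. With a filter of 1 CPM in 3 libraries Cldn14 was left out and 1 call remained. Cldn14, a claudin needed in the mouse inner ear, had 3, 1 and 1 counts in shCopa libraries, against 20, 12 and 16 counts in shCon libraries. Pooled, the ratio of shCopa over shCon was 0.110 with an exact 95% interval of 0.0342 to 0.275 for counting error. Cldn14 passed the filter through its shCon libraries alone, so the difference is given as a description; its fitted log2 fold change of -3.10 (SE 0.55) was -3.75 without shCopa 1. Cldn34c1 had 7.69, 7.34 and 5.10 CPM in shCopa libraries, against 10.4, 11.8 and 12.5 CPM in shCon libraries, and fell by 0.78 (SE 0.18, edgeR adjusted p = 0.0140). Near-identical copies of Cldn34c1 exist in the mouse genome and its deposited counts were not whole, so its level is uncertain. Cldnd1, a protein with a claudin-like domain, had 68.3, 76.9 and 79.6 CPM in shCopa libraries and 80.1, 66.4 and 61.6 CPM in shCon libraries. Its log2 fold change of 0.11 (SE 0.12, edgeR adjusted p = 0.513) did not pass, but was 0.22 and passed without shCon 1. Cldn9, Cldn10, Cldn18, Cldn19, Cldn20 and Cldn34c2 had at most 15 counts in any library and were not tested.

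Lists of other junction genes and of transcription factors give the setting of these values. They hold 95 genes, of which 82 were tested; 15 (18.3%) were higher and 25 (30.5%) lower in shCopa, beside 18.2% and 18.4% of all genes tested. The lower count was 41 without shCon 1 and 14 to 16 without shCopa 1, shCopa 2 or shCopa 3. Lower calls over all genes moved as well, from 2720 in the main fit to 1755 to 4122 in the 6 fits without a library. The fewest came without shCopa 3 and the most without shCon 1. Among proteins of tricellular contacts and the MARVEL family, relatives and neighbours of occludin, 0 of 5 tested genes were higher and 2 were lower, with a median log2 fold change of -0.37; 4 were lower without shCon 1 and 1 without any 1 of the shCopa libraries. Marveld3, a MARVEL protein of the strand, had 9.55, 7.90 and 7.27 CPM in shCopa libraries, against 14.6, 14.5 and 13.6 CPM in shCon libraries (log2 fold change -0.79, SE 0.14, edgeR adjusted p = 0.00434). Ildr2, an angulin of tricellular contacts, fell by 0.37 (SE 0.12, edgeR adjusted p = 0.0433). Of the fits with 1 library left out, Ildr2 passed only in that without shCon 1, at -0.49, and the other 5 gave adjusted p-values up to 0.138. Marveld2, or tricellulin, the MARVEL protein of those contacts, had 4.91 to 5.51 CPM in shCopa libraries and 4.32 to 4.72 CPM in shCon libraries (log2 fold change 0.18, SE 0.15, edgeR adjusted p = 0.387).

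Of 6 junctional adhesion molecules and relatives tested, immunoglobulin-type proteins beside the strand, 1 was higher and 3 were lower, with a median of -0.34. Over all genes tested, 18.2% were higher and 18.4% lower. Jam2 had 6.85, 7.25 and 6.16 CPM in shCopa libraries, against 11.8, 12.0 and 12.9 CPM in shCon libraries, and fell by 0.85 (SE 0.13, edgeR adjusted p = 0.00205). Esam, known from endothelium, fell by 1.11 (SE 0.19, edgeR adjusted p = 0.00378), and Igsf5 fell by 0.51 (SE 0.09, edgeR adjusted p = 0.00374). Jam3 rose by 0.85 (SE 0.18, edgeR adjusted p = 0.00941), with 12.1 to 16.0 CPM in shCopa libraries and 6.12 to 8.68 CPM in shCon libraries. F11r, the main family member in epithelia, had a log2 fold change of -0.16 (SE 0.10, edgeR adjusted p = 0.235).

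The scaffold proteins tie claudins and occludin to actin and to the polarity complexes. Of 22 tested, 2 were higher and 5 lower, with a median of -0.12, beside 18.2% and 18.4% of all genes tested. Without shCon 1, 5 were higher and 11 lower, and without shCopa 1, shCopa 2, shCopa 3 or shCon 2, 1 was higher and 2 or 3 were lower. Tjp3 (ZO-3), which binds claudin tails, had 1.24, 1.68 and 1.11 CPM in shCopa libraries, against 7.19, 5.28 and 4.56 CPM in shCon libraries. It fell by 2.07 (SE 0.26, edgeR adjusted p = 0.00101). Its paralog Tjp1 (ZO-1) had 212, 207 and 210 CPM in shCopa libraries and 125, 225 and 233 CPM in shCon libraries, and did not pass. The Tjp1 value of 0.11 (SE 0.22, edgeR adjusted p = 0.723) became -0.13 and passed without shCon 1, the library that was low for this gene. Prkcz, the atypical protein kinase C of the Par complex, fell by 0.68 (SE 0.13, edgeR adjusted p = 0.00507), and Pard6g, its partner, rose by 0.63 (SE 0.10, edgeR adjusted p = 0.00257). Amot, a scaffold of the Hippo pathway, fell by 0.48 (SE 0.14, edgeR adjusted p = 0.0322) and, of the fits with 1 library left out, passed only without shCon 1 (-0.63). Magi3, a PDZ scaffold, rose by 0.50 (SE 0.15, edgeR adjusted p = 0.0370) and was lost in 4 of those 6 fits, namely without shCopa 1 (0.51), shCopa 2 (0.49), shCopa 3 (0.49) and shCon 2 (0.54). Its lowest value in those fits was 0.34, without shCon 1.

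Among 13 tested modifiers of claudins and occludin (kinases, proteases and their regulators), 2 were higher and 2 lower, with a median of -0.19. The shares over all genes tested were 18.2% and 18.4%. Of these modifiers, 5 were lower without shCon 1 and 1 without any other library. Wnk4, a kinase that phosphorylates claudins in kidney cells, had 11.6, 11.3 and 10.8 CPM in shCopa libraries, against 37.7, 40.7 and 44.8 CPM in shCon libraries. It fell by 1.87 (SE 0.11, edgeR adjusted p = 5.5e-05), with no overlap between the groups. St14, the membrane protease matriptase, rose by 1.22 (SE 0.18, edgeR adjusted p = 0.00171), with 10.8 to 13.1 CPM in shCopa libraries and 4.36 to 6.28 CPM in shCon libraries. Ybx3 (ZONAB), a factor that binds ZO-1, rose by 0.62 (SE 0.10, edgeR adjusted p = 0.00266). Arhgef2 (GEF-H1), an exchange factor found at junctions, fell by 0.32 (SE 0.09, edgeR adjusted p = 0.0272) and, with 1 library left out, passed only without shCon 1 (-0.36). Epcam, which stabilises claudins in intestinal epithelium, was not tested, at 0.177 to 0.354 CPM in shCopa libraries and 0.429 to 0.789 CPM in shCon libraries.

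In the adherens junctions and desmosomes, which lie below the tight junction, 5 of 19 tested genes were higher and 7 lower, with a median of -0.30. Beside them, 18.2% of all genes tested were higher and 18.4% lower. The lower count was 2 without shCopa 1 or shCopa 2, 3 without shCopa 3 or shCon 2, 4 without shCon 3, and 10 without shCon 1. The catenins Jup, Ctnna1 and Ctnnb1, which link cadherins to the cytoskeleton, fell by 0.43 (SE 0.08, edgeR adjusted p = 0.00590), 0.43 (SE 0.09, edgeR adjusted p = 0.00718) and 0.45 (SE 0.10, edgeR adjusted p = 0.00925). Ctnnb1 did not pass without shCopa 1 (-0.42) or shCopa 2 (-0.45). Cdh1, or E-cadherin, had 26.5, 24.7 and 28.4 CPM in shCopa libraries, against 30.5, 38.6 and 39.3 CPM in shCon libraries. It fell by 0.45 (SE 0.13, edgeR adjusted p = 0.0285), but with 1 library left out it passed only without shCon 1 (-0.56). The desmosomal plakophilin Pkp2 had 86.4, 92.6 and 89.6 CPM in shCopa libraries, against 44.0, 44.1 and 44.9 CPM in shCon libraries, and rose by 1.01 (SE 0.08, edgeR adjusted p = 0.00015). Pkp1 rose by 2.11 (SE 0.35, edgeR adjusted p = 0.00313). Nectin4, a cell adhesion molecule, had 30, 18 and 18 counts in shCopa libraries, against 1, 5 and 1 counts in shCon libraries. It passed the filter through its shCopa libraries alone and was left out by a filter of 1 CPM in 3 libraries, so its difference is a description; the fitted log2 fold change of 3.25 (SE 0.59) was 4.36 without shCon 2.

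**Figure D4:**
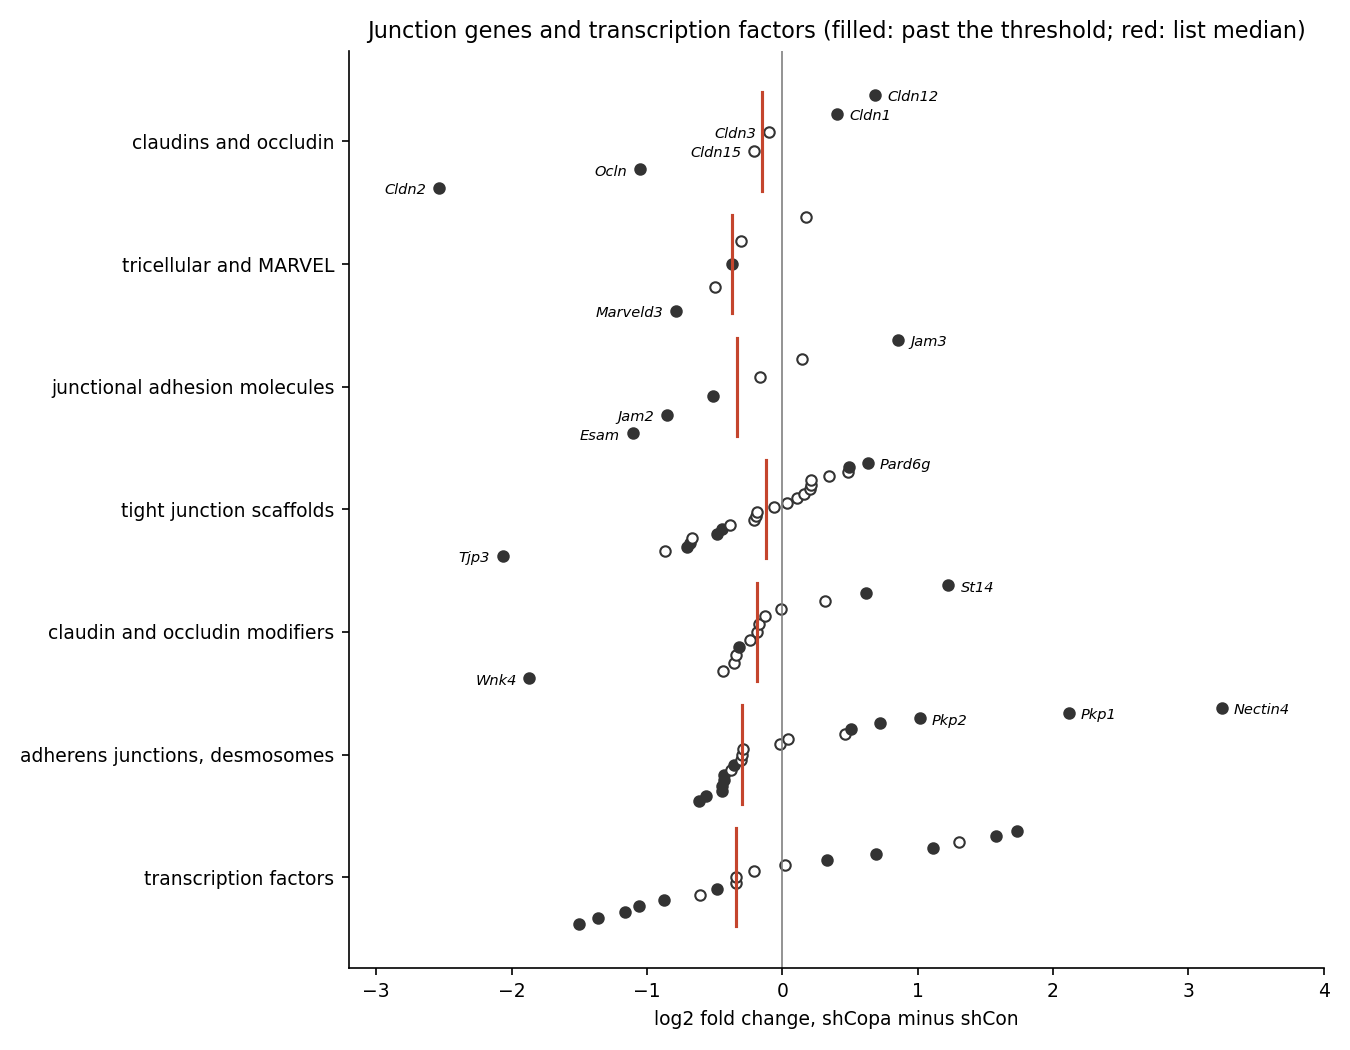
Log2 fold change, shCopa minus shCon, of every tested gene in 6 lists of junction genes and 1 of transcription factors; filled points passed an adjusted p of 0.05 over all genes, open points did not, and red lines mark list medians. Cldn2 at -2.54 lies lowest of all the genes plotted, and the list medians lie between -0.37 and -0.12.

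Transcription factors that are known to set epithelial or mesenchymal programmes, some of them through claudin and occludin promoters, moved in both directions. Of 17 tested, 5 were higher and 6 lower, with a median of -0.34, beside 18.2% and 18.4% of all genes tested. The higher count was 3 without shCopa 1, shCopa 2, shCopa 3 or shCon 2. Zeb2 and Zeb1, repressors of epithelial genes, rose by 1.11 (SE 0.16, edgeR adjusted p = 0.00168) and 0.69 (SE 0.16, edgeR adjusted p = 0.0121). Without shCon 1 these values were 0.95 and 0.52. Zeb2 had 81.6, 77.0 and 75.8 CPM in shCopa libraries, against 27.4, 39.3 and 41.6 CPM in shCon libraries. Hnf4a, a hepatocyte and gut factor, rose by 1.58 (SE 0.28, edgeR adjusted p = 0.00422), with 6.32 to 8.59 CPM in shCopa libraries and 1.72 to 3.57 CPM in shCon libraries. The rise of Hnf4a was 1.36 without shCon 1. Foxa1 fell by 1.06 (SE 0.13, edgeR adjusted p = 0.00074), Klf4 by 0.87 (SE 0.11, edgeR adjusted p = 0.00084) and Ehf by 1.36 (SE 0.17, edgeR adjusted p = 0.00088), all 3 factors of differentiated epithelia. Grhl2 and Ovol2, activators of epithelial genes, were not tested, at no more than 0.518 and 0.0928 CPM in any library.

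Marker lists were read to check the labelled cell type. The 10 bile duct markers, Cdh1 among them, summed to 8562 to 9043 CPM in shCopa libraries, against 11446 to 14567 CPM in shCon libraries, with Spp1 the most abundant. Of the 9 tested, 5 were lower in shCopa, where 18.4% of all genes tested were lower. Epcam, a defining marker, was below 1 CPM in every library. Hepatocyte markers summed to 26.2 to 27.0 CPM in shCopa libraries and 10.2 to 15.1 CPM in shCon libraries, with Alb the largest and the single gene past the threshold, on the higher side; 8 of 10 averaged below 1 CPM over the 6 libraries. Endothelial markers summed to 7.78 to 10.6 CPM in shCopa libraries and 1.72 to 2.32 CPM in shCon libraries. Of the 4 tested, 3 (Ptprb, Kdr and Vwf) passed as higher, where 18.2% of all genes tested did. The filter favours that direction for these 3 genes, so the count is not a result about the list. Ptprb had 3.85, 4.10 and 4.29 CPM in shCopa libraries and 0.278, 0.772 and 0.616 CPM in shCon libraries. Kdr had 1.15, 1.81 and 2.63 CPM in shCopa libraries and no more than 0.139 CPM in shCon libraries. Of the 10 endothelial genes, 8 averaged below 1 CPM over the 6 libraries, and Tie1, Erg and Emcn were at 0. Fibroblast markers summed to 171 to 184 CPM in shCopa libraries and 185 to 223 CPM in shCon libraries, nearly all of it from Dcn; Acta2 passed as higher, with 1.19, 1.77 and 1.31 CPM in shCopa libraries and 0.325, 0.129 and 0.287 CPM in shCon libraries, and Pdgfrb as lower. Leukocyte markers summed to 111 to 114 CPM in shCopa libraries and 157 to 195 CPM in shCon libraries, most of it from Csf1r, which passed as lower. Lyz2 and Ptprc passed as higher, with Lyz2 at 8.18, 7.99 and 8.44 CPM in shCopa libraries and 1.81, 1.42 and 1.15 CPM in shCon libraries, and Ptprc at 0.929, 1.08 and 1.26 CPM in shCopa libraries and no more than 0.0429 CPM in shCon libraries. In each of these last lists 7 of 10 genes averaged below 1 CPM over the 6 libraries. Kdr, Vwf, Acta2 and Ptprc passed the low-count filter through their shCopa libraries alone. Ptprb, with 6, 18 and 15 counts in shCon libraries, would not have passed it on those alone. The differences of all these genes are therefore given as a description. The part of the marker lists in the claudin values was not tested.

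Finally, the genes with the most similar profile over the 6 libraries were found for the members with the largest rise and fall, among 9589 genes averaging at least 10 CPM. Likeness was the root mean square difference between centred log2 CPM values. The nearest genes to Cldn12 were Parp12 (0.0197), Klhl13 (0.0219) and Ndc1 (0.0309), with log2 fold changes of 0.67, 0.67 and 0.71. Nearest to Cldn2 were C4bp (0.126), Enpp1 (0.135) and Slc16a12 (0.145), with log2 fold changes of -2.47, -2.76 and -2.28. All 6 profiles follow the division of the libraries into the 2 groups, which the choice by likeness fixes.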

How the data were processed

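RNA-seq of 6 AY-mICC libraries, 3 shCopa and 3 shCon by their titles, was analysed from the table of estimated counts per gene that the authors deposited. Between 10.6% and 11.9% of the values per library were not whole. The submitters' processing notes name Trimmomatic, HISAT2 2.0.5, HTSeq, featureCounts, DESeq2 and GRCm39; the counting program, gene annotation and strandedness are not given in the sources. Overlapping and antisense genes may therefore share counts.

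The estimated counts were rounded. Of 55414 Ensembl IDs, 52081 matched a symbol. Library totals were 19634876 to 24546142 counts. edgeR 4.0.16 (R 4.3.3; TMM, filterByExpr, robust quasi-likelihood test) was fitted to all 14807 genes that passed the filter, with Benjamini-Hochberg adjustment over them and a threshold of 0.05. The common biological coefficient of variation, a single value for all genes, was 0.165. Each SE of a log2 fold change was worked back from the quasi-likelihood test, as its size divided by the square root of the F statistic. The scripts were tested on simulated data. Exon lengths come from GENCODE M21 and promoters from RefSeq (GRCm38.p6, 9 of 10 members matched), used for lengths and sequences only. Exact intervals (95%) cover counting error only. Alternatives used limma-voom 3.58.1, DESeq2 1.42.0, other scalings, filters, a replicate block and fits without each library. Longest-transcript lengths and the make-up without each library were added after seeing the data.

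The members and lists were chosen with earlier results of these data known. Named were all members, other claudins with at least 10 counts, Copa, up to 3 genes in each direction by adjusted p in each junction list, a set of further genes (Tjp1, Tjp3, Marveld2, F11r, Epcam, Cdh1, Grhl2, Ovol2 and 1 that is not reported here) and the 3 nearest profiles to the members with the largest rise and fall.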

Additional observations from a re-analysis of the deposited data

How the results depend on the processing

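Cldn2, Cldn12 and Ocln kept their direction and passed in all alternatives tried, and Cldn1 in all but 2 fits without a library and at the stricter threshold. Over the fits that leave out 1 library, 1 to 3 members were higher, 14 to 41 genes of the junction and transcription factor lists were lower, and 1778 to 4317 genes were higher and 1755 to 4122 lower over all genes; the most calls came without shCon 1. At an adjusted p of 0.01, 1 member (Cldn12) was higher. Without shCon 1, Cldn3 turned to 0.29 and Tjp1 to -0.13; the cause was not tested. Over all 6 such fits Cldn3 lay between -0.28 and 0.29 and Tjp1 between -0.13 and 0.25. Among named genes, scaling by library size alone ended the calls of Ildr2, Amot and Arhgef2, and upper-quartile scaling that of Ildr2. None of the named genes changed direction. In the junction and transcription factor lists, lower calls went from 25 to 19 and 22 under these scalings. Lower scaffolds went from 5 to 2 and 4. Lower calls over all genes went from 2720 to 2422 and 2557, and the median of all genes moved to 0.04 and 0.02. The share of Cldn2 in the claudin sum differed by -39.6 points without length scaling, -38.6 points with longest transcripts and -39.8 to -37.8 points without a library. Genes that did not pass the low-count filter were not tested at this depth.

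The groups share replicate numbers, but same-numbered libraries did not deviate together (r = -0.162, -0.0583 and -0.114). With the replicate number as a block, 12 genes of the junction and transcription factor lists were higher and 15 lower, against 15 and 25 without it; the 4 member calls remained, and Ildr2, Amot, Arhgef2 and Cdh1 did not pass. In this fit 2 scaffolds and 3 genes of the adherens junctions and desmosomes were lower.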
